A study of Homo sapiens with 6 samples.

Results

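The 48 genes described here encode iron-dependent dioxygenases that use 2-oxoglutarate, together with close relatives of these enzymes. They were chosen by name and enzyme family from the 28848 genes entered in the gene test. By role they fall into 16 histone demethylases, 3 TET enzymes of DNA, 6 further JmjC-domain proteins, 9 AlkB-type enzymes of nucleic acids, 3 OGFOD proteins, 2 small-molecule hydroxylases and 9 hydroxylases of the secretory pathway. RNA came from K562, an erythroleukemia cell line, transduced with lentivirus carrying a short hairpin RNA (shRNA) against luciferase (shCtrl, n = 3 libraries) or against PCBP1 (shPCBP1, n = 3 libraries). Both groups were held in 3 µg/ml puromycin for 4 days before collection, and 1 hairpin per group was named in the sources. PCBP1 binds C-rich RNA and also hands iron to other proteins, and in the study these libraries addressed which RNAs depend on PCBP1. The labels number the libraries but do not say that they came from separate cultures, so the p-values measure only the spread between these libraries.

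These enzymes hold a single iron ion in their active site and couple oxidation of their substrate to the conversion of 2-oxoglutarate and oxygen into succinate and carbon dioxide. Methyl groups oxidized in this way leave as formaldehyde, which is how JmjC histone demethylases and the RNA demethylases FTO and ALKBH5 work, whereas TET enzymes, collagen hydroxylases and the ribosomal oxygenases leave a hydroxyl group on their substrate. Loss of iron, oxygen or 2-oxoglutarate limits their activity, and succinate, fumarate and 2-hydroxyglutarate compete with 2-oxoglutarate.

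The 2 sequences below hold an exon of the lysyl hydroxylase gene PLOD3 and an intron of the JmjC gene JMJD8. Their estimated use differed between groups, as described later, without a test of its own. Each is written 5′ to 3′ on the transcribed minus strand of build hg38, with 50 bases before and 10 bases after the region in lower case. Capitals mark the alternative exon in the PLOD3 sequence and the intron that is either spliced or retained in the JMJD8 sequence.
PLOD3 exon: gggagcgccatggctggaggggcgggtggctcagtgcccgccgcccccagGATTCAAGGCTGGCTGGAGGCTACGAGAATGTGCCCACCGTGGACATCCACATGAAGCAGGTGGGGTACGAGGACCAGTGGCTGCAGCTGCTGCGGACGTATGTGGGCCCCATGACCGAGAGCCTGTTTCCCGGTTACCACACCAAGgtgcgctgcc
JMJD8 intron: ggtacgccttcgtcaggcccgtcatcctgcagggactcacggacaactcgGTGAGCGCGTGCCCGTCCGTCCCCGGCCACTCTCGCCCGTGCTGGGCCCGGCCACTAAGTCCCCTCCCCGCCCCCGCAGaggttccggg
The windows lie at chr7:101207568-101207774 and chr16:683772-683910. The PLOD3 exon of 147 bases is a whole number of codons and belongs to the coding sequence of transcript PLOD3-201, and the JMJD8 intron of 79 bases is retained in JMJD8-214.

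Libraries held 67066747 to 140522444 estimated counts, and the deepest 2 were shCtrl libraries. The first principal component (29.4% of variance) separated the groups, and pairs of libraries of 1 group differed by 7.35 to 22.4 times the sampling variance, so no library was a copy of another. PCBP1 itself was at 40566, 38409 and 37799 normalized counts in shCtrl and at 6625, 7277 and 7221 in shPCBP1, or 18.1% of control. Erythroid markers summed to 28827 to 34637 TPM (a level scaled by transcript length and library total) in shCtrl and to 32991 to 34413 TPM in shPCBP1, with fetal globin HBG1 (log2 fold change 0.16) and TAL1 (0.19) higher and EPOR (-0.26) lower. Summed megakaryocyte markers went in level from 15.9 to 20.2 TPM to 6.82 to 8.44 TPM over 6 genes. The platelet integrin ITGA2B carried most of that sum in shCtrl and was lower in shPCBP1 (log2 fold change -1.91). Its partner ITGB3 was higher (0.45), and GP9 was listed at 0. Lymphoid markers summed to 65.0 to 76.8 TPM in shCtrl and 47.9 to 64.9 TPM in shPCBP1, nearly all from CD3D, which did not pass (-0.19, adjusted p = 0.191). Epithelial markers summed to 36.7 to 38.1 TPM and 26.7 to 36.4 TPM, nearly all from EPCAM, which was lower (-0.19), with the keratin KRT14 listed at 0. The part of these shifts in the results below was not tested.

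In level, the members spanned a wide range. Summed over all 48 they held 986 to 1017 TPM in shCtrl libraries and 1026 to 1043 TPM in shPCBP1 libraries, and 32 members averaged at least 10 TPM. The most abundant in shCtrl were PLOD3 at 73.8 ± 5.09 TPM (SD, n = 3), OGFOD1 at 69.0 ± 1.36 TPM and the X-linked histone demethylase KDM5C at 62.8 ± 3.77 TPM, and the first 2 of these did not differ beyond their spread. At the other end PLOD2, P4HTM and P3H2 were under 1 TPM. PLOD2 had 82.8, 66.3 and 41.4 normalized counts in shCtrl and 74.2, 34.4 and 48.4 in shPCBP1, and P4HTM and P3H2, with mean normalized counts of 16.1 and 3.36, received no adjusted p. Differences in the genes at this end were not detectable at this depth.

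**Figure D1:**
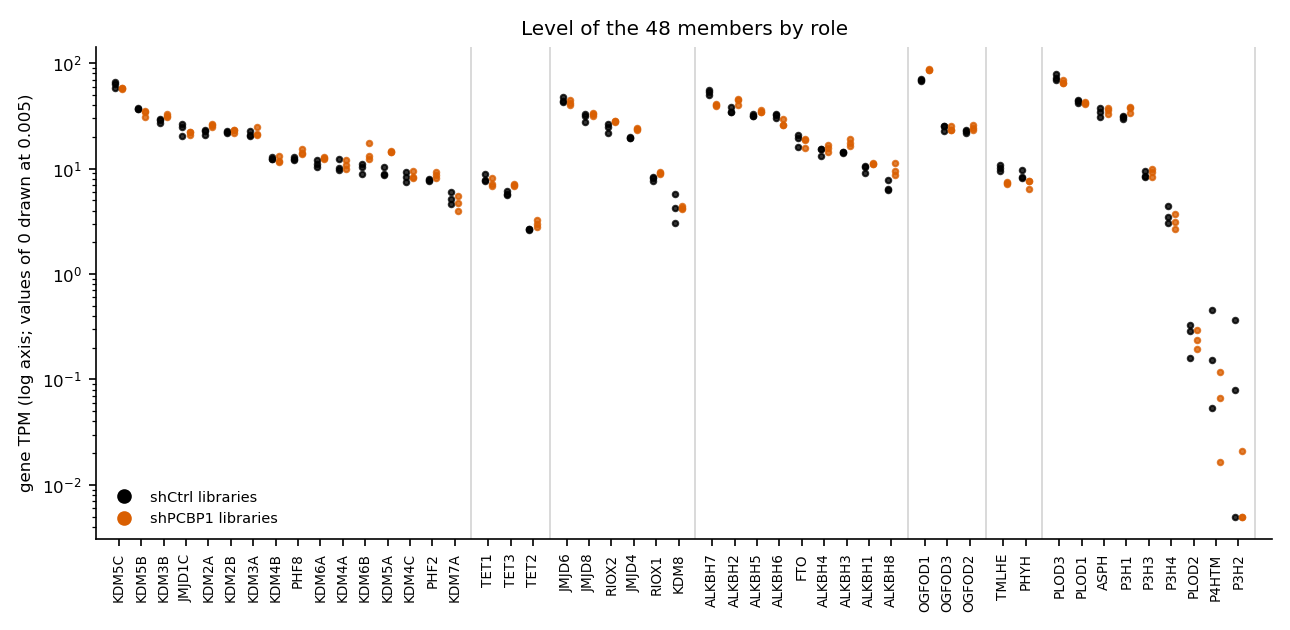
Gene TPM of the 48 members on a log axis, with members ordered within each role by their shCtrl mean; each point is 1 library (black shCtrl, orange shPCBP1) and vertical lines separate the roles. Most members lie between 1 and 100 TPM, and PLOD2, P4HTM and P3H2 lie under 1 TPM.

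Of the 46 members with an adjusted p, 23 changed at an adjusted p under 0.05 after PCBP1 knockdown, 19 of them higher and 4 lower. Among all 17095 genes tested 31.2% were called in either direction, 17.7% higher and 13.5% lower. Most members are well measured, so a closer background is the set of genes whose normalized counts averaged 1000 or more. Of these 28.7% were higher and 16.2% lower, against 19 and 3 of the 42 members at that level. The median log2 fold change of the 46 members was 0.13, beside 0.0019 for all genes tested and 0.043 for genes with a mean of at least 1000. Fold changes were small, from -0.59 to 0.49 on the log2 scale. No member passed the 2-fold limit of the study, which 1.37% of genes tested passed (edgeR: 0 members). In DESeq2 29 members had an unadjusted p under 0.05, beside 7343 of all 28848 genes. Among genes with a mean of at least 1000 this held for 5067 of 9369. All 23 called members had groups that did not overlap in normalized counts, as did 6 members that were not called. Of all genes tested 44.2% had groups that did not overlap. This share was not taken for genes with a mean of at least 1000, the closer background.

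Transcript length ran with direction across the transcriptome. Among genes with a mean of at least 1000, 17.7% of those with a canonical transcript under 1500 bases were higher, 23.8% of those from 1500 to 3000 bases, 30.7% of those from 3000 to 5000 bases and 38.2% of those of 5000 bases or more. Of the 42 members at that count level 18 were in the last class, 9 of which rose and 0 fell. Genes lower made up 18.6%, 19.7%, 15.9% and 11.2% of these length classes, from the shortest to the longest. Within the other classes 1 of 3, 5 of 12 and 4 of 9 members rose. The part of length in the members' result was not tested.

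**Figure D2:**
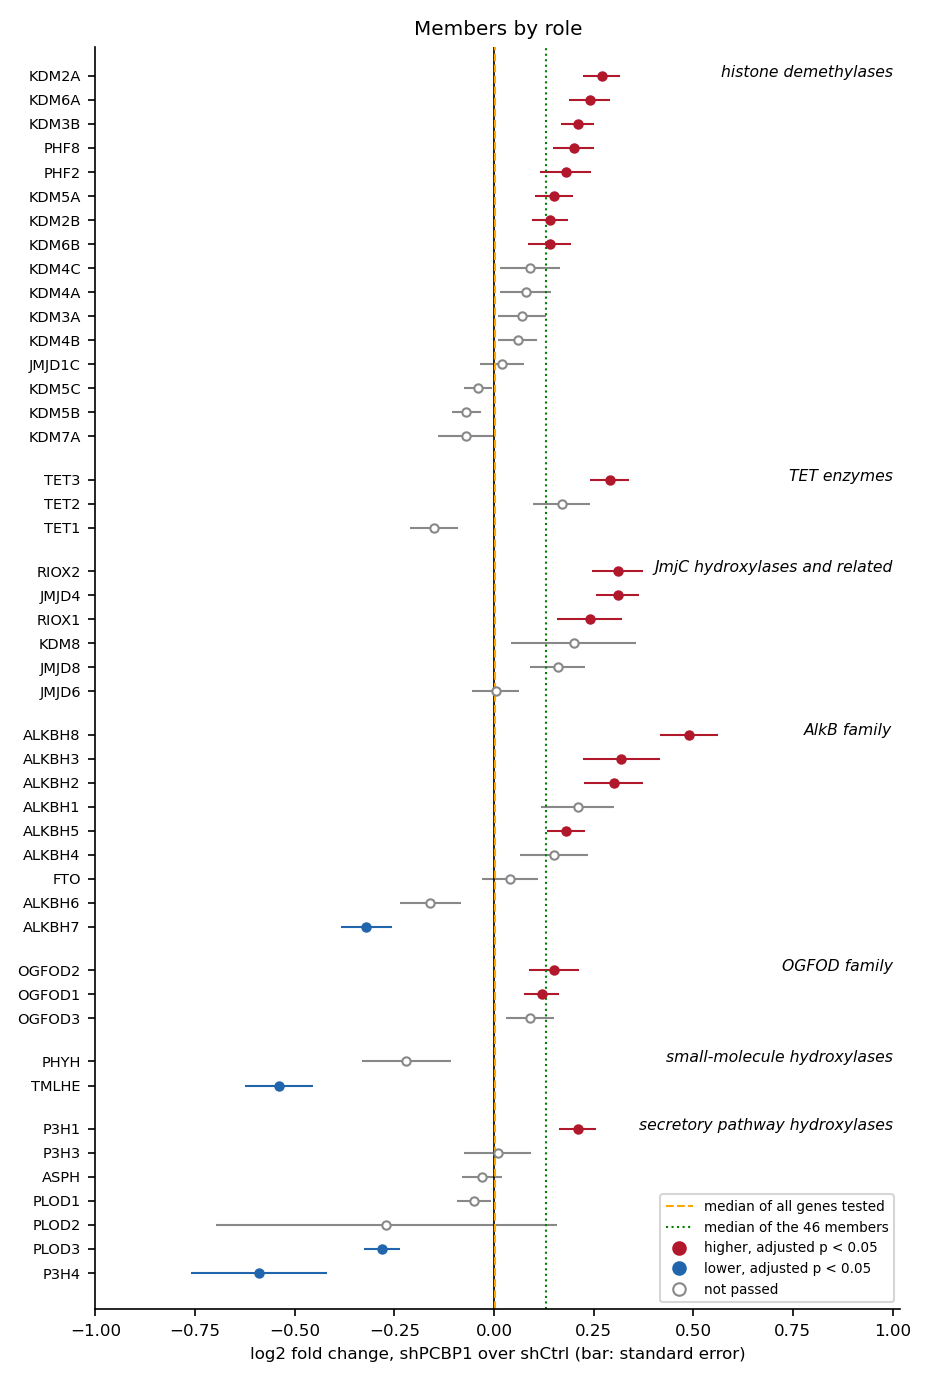
Log2 fold change of the 46 members with an adjusted p (points) with its standard error (bars), shPCBP1 over shCtrl, sorted within each role; filled red points rose, filled blue points fell and open points did not pass an adjusted p of 0.05. The dashed line marks the median of all genes tested (0.0019) and the dotted line the median of the 46 members (0.13).

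Histone demethylases were the largest class, and none of the 16 fell, although KDM5B passed as lower when only protein-coding genes were tested (log2 fold change -0.09, adjusted p = 0.0312). They rose in 8 cases and did not pass in the other 8, with a median log2 fold change of 0.11. KDM2A, which removes methyl groups from histone H3 at CpG islands, stood at 8270, 7768 and 8559 normalized counts in shCtrl and at 10166, 9647 and 9956 in shPCBP1. Every shPCBP1 library was thus above every shCtrl library, with a log2 fold change of 0.27 ± 0.0469 (SE) and an adjusted p of 9.21e-08. Its paralog KDM2B, a subunit of a Polycomb complex, had 6927, 6774 and 7095 normalized counts in shCtrl and 7798, 7761 and 7329 in shPCBP1 (log2 fold change 0.14). This rise was smaller, and it was lost (0.06, adjusted p = 0.503) in a fit that also corrected each library for the mean length of the gene's transcripts, called here the fit with transcript length. The call was also lost without shPCBP1 replicate 1 or 2 (adjusted p = 0.0573 and 0.0750).

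KDM6A and KDM6B remove the methyl mark that Polycomb places on histone H3, and both rose. For KDM6A the normalized counts were 4654, 5075 and 4801 in shCtrl and 5890, 5669 and 5576 in shPCBP1. The groups were apart by more than their spread (log2 fold change 0.24 ± 0.0519, adjusted p = 4e-05). For KDM6B they were 4158, 4452 and 4299 in shCtrl and 4821, 4541 and 4895 in shPCBP1 (log2 fold change 0.14), and the gap between the groups was narrow. The edgeR test did not call KDM6B (adjusted p = 0.0819), nor did DESeq2 without shCtrl replicate 1 or 3 or shPCBP1 replicate 1 or 3 (adjusted p from 0.0659 to 0.137). The KDM6B call was also lost with the replicate number as a block (0.0865), with TMM scaling (0.0518) and among protein-coding genes only (0.0686). With transcript length in the fit its log2 fold change was instead 0.53 (adjusted p = 5.7e-05). Its transcript KDM6B-206 of 219 bases went from 1.54 ± 0.98 to 5.4 ± 2.37 TPM. This rested on 8, 3 and 2.05 estimated counts in shCtrl and 8.02, 8 and 14 in shPCBP1. The part of that short transcript in the value of 0.53 was not tested.

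The demethylases of histone H3 that act on repressive marks of heterochromatin moved less evenly. KDM3B had 12179, 13182 and 13108 normalized counts in shCtrl and 14727, 14955 and 14729 in shPCBP1, with tightly placed shPCBP1 libraries above all controls (log2 fold change 0.21 ± 0.0412, adjusted p = 5.96e-06). The PHD-finger enzyme PHF8 had 5053, 5016 and 5238 against 6165, 5766 and 5659 (log2 fold change 0.20), and PHF2 had 3371, 3322 and 3523 against 3939, 3558 and 4117 (0.18). In PHF2 the second shPCBP1 library lay just above the highest control, and edgeR gave an adjusted p of 0.0516. PHF2 was not called without shCtrl replicate 1 or 2 or shPCBP1 replicate 1 or 3 either (adjusted p from 0.0716 to 0.120). KDM3A, KDM4A, KDM4B, KDM4C and JMJD1C did not pass, with log2 fold changes from 0.02 to 0.09 and overlapping groups.

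Among the enzymes that remove methyl marks of active promoters, KDM5A passed and its relatives did not, and the difference between them was not tested. KDM5A had 4876, 5125 and 5058 normalized counts in shCtrl and 5598, 5574 and 5519 in shPCBP1 (log2 fold change 0.15). KDM5B had 15436, 15788 and 15802 in shCtrl and 14583, 15264 and 14959 in shPCBP1, and KDM5C had 21727, 21097 and 21167 against 21171, 20591 and 20514. The KDM5B groups did not overlap but its log2 fold change of -0.07 did not pass (adjusted p = 0.138), and those of KDM5C overlapped (-0.04). KDM7A, the remaining demethylase, was at -0.07 with overlapping groups.

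TET enzymes oxidize methylcytosine in DNA, and 1 of the 3 changed. TET3 was at 5583, 5824 and 5863 normalized counts in shCtrl and at 7351, 6753 and 7042 in shPCBP1. The gap between the groups was larger than the range within either of them, and the log2 fold change was 0.29 ± 0.0491 (adjusted p = 5.19e-08). TET1 had 6040, 6566 and 5925 in shCtrl and 5264, 5425 and 6069 in shPCBP1, and TET2 had 1942, 2007 and 2075 against 2143, 2221 and 2418. Their log2 fold changes had opposite signs, -0.15 for TET1 with overlapping groups and 0.17 for TET2 with groups just apart, and neither passed (adjusted p = 0.0539 and 0.0577). TET1 passed as lower with TMM scaling (adjusted p = 0.0329) and without shCtrl replicate 3 or shPCBP1 replicate 3 (0.0494 and 0.00333), and TET2 passed as higher without shPCBP1 replicate 1 (0.0358).

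Some of the other JmjC-domain proteins act on the translation machinery, and of all 6 in this class 3 rose (median log2 fold change 0.22). JMJD4, which hydroxylates the translation termination factor eRF1, had 3305, 3223 and 3446 normalized counts in shCtrl and 4181, 4154 and 4061 in shPCBP1. The shPCBP1 libraries were close to each other and well above the controls (log2 fold change 0.31 ± 0.0546, adjusted p = 1.77e-07). RIOX2, a ribosomal oxygenase that hydroxylates histidine in a ribosomal protein, had 4243, 3685 and 4144 against 5281, 4878 and 4770 (log2 fold change 0.31 ± 0.0638, adjusted p = 1.8e-05). Its relative RIOX1 had 1502, 1360 and 1555 against 1812, 1720 and 1688 (log2 fold change 0.24). In both oxygenases the second control library was the lowest and no library of one group reached the other. The RIOX1 call was lost without shCtrl replicate 2 or shPCBP1 replicate 1 (adjusted p = 0.0687 and 0.0782) and with transcript length in the fit, where the log2 fold change was 0.20 (0.0847). JMJD8, a protein of the endoplasmic reticulum, had 3309, 3284 and 3002 against 3883, 3413 and 3396, with groups apart but an adjusted p of 0.0654. KDM8 (0.20, standard error 0.156) and the lysyl hydroxylase JMJD6 (0.0043) did not pass.

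AlkB enzymes remove alkyl and methyl groups from DNA and RNA or modify transfer RNA, and they held the largest rise of any member. ALKBH8 builds modified uridines at the wobble position of transfer RNAs. It was at 1704, 1708 and 1800 normalized counts in shCtrl and at 2592, 2456 and 2282 in shPCBP1, or 141% of control. Even the lowest shPCBP1 library was far above the highest control, and the log2 fold change was 0.49 ± 0.0729 (adjusted p = 4.34e-10). ALKBH2 and ALKBH3 repair alkylated bases in DNA. ALKBH2 had 2376, 2150 and 2119 in shCtrl and 2847, 2832 and 2506 in shPCBP1 (log2 fold change 0.30 ± 0.0746, adjusted p = 4.01e-04), and ALKBH3 had 1221, 992 and 1232 against 1476, 1401 and 1443 (0.32). Both repair enzymes were higher in every shPCBP1 library, though ALKBH3 was measured on fewer counts and one control library was low.

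The RNA demethylases of N6-methyladenosine differed from each other. ALKBH5 had 7723, 7428 and 8218 normalized counts in shCtrl and 8922, 8971 and 8604 in shPCBP1 (log2 fold change 0.18), with no overlap. FTO had 2296, 2490 and 2479 against 2327, 2615 and 2544, fully overlapping, with a log2 fold change of 0.04 ± 0.0702. The difference between the 2 genes was not tested. ALKBH7, a mitochondrial member with a part in programmed necrosis, went the other way at 3066, 3141 and 2873 in shCtrl and 2479, 2385 and 2387 in shPCBP1. The shPCBP1 libraries stood at 79.9% of control and below every shCtrl library (log2 fold change -0.32 ± 0.0636, adjusted p = 4.58e-06). ALKBH1 (0.21), ALKBH4 (0.15) and ALKBH6 (-0.16) did not pass, although ALKBH1 passed without shCtrl replicate 3 (adjusted p = 0.0175) and ALKBH6 without shCtrl replicate 2 (0.0414).

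OGFOD1, a prolyl hydroxylase of a ribosomal protein, had 9820, 9683 and 10271 normalized counts in shCtrl and 11097, 10865 and 10388 in shPCBP1. OGFOD2 had 2615, 2683 and 2620 against 3100, 2880 and 2822. The groups were apart in both, but the rises were small (log2 fold changes 0.12 and 0.15) and were not called by edgeR (adjusted p = 0.0896 and 0.0977), and for OGFOD2 11 of 14 other fits gave no call. Without shCtrl replicate 1 or 2 or shPCBP1 replicate 1 or 2 neither gene was called, with adjusted p from 0.0761 to 0.112 for OGFOD1 and from 0.0550 to 0.210 for OGFOD2, and OGFOD2 was also not called without shCtrl replicate 3 (0.105). OGFOD3 was at 0.09 and did not pass.

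Both small-molecule hydroxylases were lower, and 1 of them passed. TMLHE catalyses the first step of carnitine synthesis in mitochondria, the hydroxylation of trimethyllysine. It was at 1430, 1491 and 1433 normalized counts in shCtrl and at 955, 1015 and 1017 in shPCBP1, or 68.6% of control. The libraries of each group were nearly level and the groups were far apart (log2 fold change -0.54 ± 0.0851, adjusted p = 4.12e-09). PHYH, which starts the breakdown of phytanic acid in peroxisomes, had 839, 889 and 850 against 655, 793 and 765, with groups apart but an adjusted p of 0.12.

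Hydroxylases of the secretory pathway modify collagen and other exported proteins, and of the 7 tested 1 rose and 2 fell (median log2 fold change -0.049). PLOD3 hydroxylates collagen lysines and adds sugars to them. It was at 10985, 10119 and 10220 normalized counts in shCtrl and at 8777, 8682 and 8402 in shPCBP1, with every shPCBP1 library below the controls (log2 fold change -0.28 ± 0.0454, adjusted p = 2.42e-08). With transcript length in the fit the value was -0.13 and was not called (adjusted p = 0.137). P3H4 lacks the catalytic residues of its relatives and is a partner of lysyl hydroxylase in the endoplasmic reticulum. It had 448, 566 and 385 against 328, 298 and 299, the fewest counts among called members, with wide control values. Its log2 fold change of -0.59 was also lost with transcript length in the fit (-0.18, adjusted p = 0.564).

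P3H1, a collagen prolyl hydroxylase, had 5270, 5207 and 5402 normalized counts in shCtrl and 6189, 6253 and 5977 in shPCBP1. The libraries of each group lay close together and apart from the other group (log2 fold change 0.21 ± 0.0467, adjusted p = 4.34e-05). PLOD1, the aspartyl hydroxylase ASPH and P3H3 overlapped between groups, at -0.05, -0.03 and 0.01, and PLOD2 was at -0.27 with a standard error of 0.428.

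**Figure D3:**
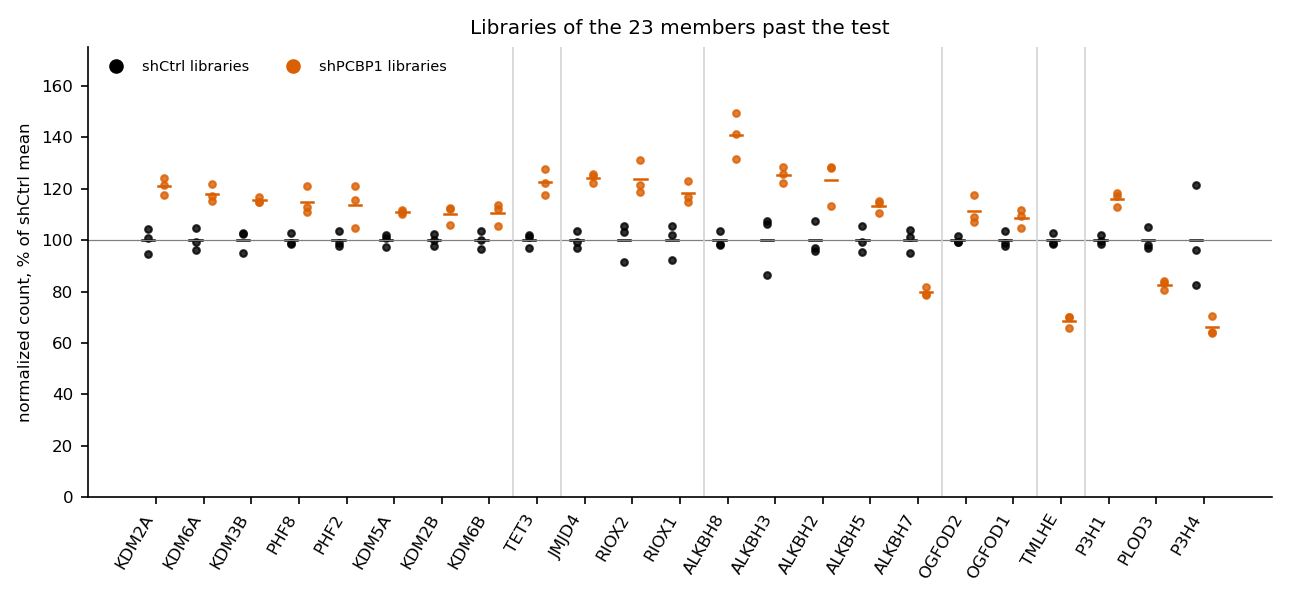
Normalized counts of the 23 called members as percent of the shCtrl mean (points, 1 per library; short lines, group means), with roles separated by vertical lines. In every gene the shPCBP1 points lie wholly above or wholly below the shCtrl points, from P3H4 at 66.1% of control on average to ALKBH8 at 141%.

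Gene counts add up all transcripts of a gene, so the canonical transcript of each called member was followed as well, as a description in TPM. In 20 of the 23 its mean moved in the direction of the gene, and in 16 its groups were also apart in that direction. It carried over 50% of the gene's TPM in shCtrl in 11 of them. For ALKBH8 the canonical transcript had 5.09, 5.29 and 5.40 TPM in shCtrl and 7.92, 7.84 and 6.92 TPM in shPCBP1, or 144% of control. For TMLHE it had 3.10, 3.55 and 3.05 TPM against 1.84, 1.86 and 2.08 TPM, or 59.6% of control. In both genes the transcript and the gene thus moved alike. The exceptions were KDM2B, OGFOD1 and OGFOD2, whose canonical transcripts were at 92.0%, 94.8% and 91.8% of control with overlapping groups, while their gene counts were higher.

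In OGFOD1 other transcripts were higher in TPM while the canonical one was not. The canonical OGFOD1-207 of 4587 bases was at 8.84 ± 0.571 TPM in shCtrl and 8.38 ± 0.565 TPM in shPCBP1. The short OGFOD1-208 of 537 bases, with no coding sequence defined, went from 11.7 ± 2.03 to 21 ± 2.41 TPM, and OGFOD1-201, annotated as a target of nonsense-mediated decay, from 24.1 ± 0.635 to 26.6 ± 0.957 TPM. Neither passed as a share of the gene (adjusted p = 0.223 and 0.360). In KDM5A the canonical KDM5A-201 had 5.55, 5.93 and 5.70 TPM against 5.98, 5.98 and 6.02 TPM, while the whole gene went from 9.32 ± 0.928 to 14.6 ± 0.167 TPM. The normalized count of the gene was at 111% of control. Shorter transcripts were among those with more TPM. KDM5A-210 of 2338 bases was at 0.111 ± 0.192 TPM in shCtrl and 1.44 ± 0.330 TPM in shPCBP1, and the retained-intron transcript KDM5A-205 of 516 bases had 4.08, 2.29 and 0 TPM in shPCBP1 and was listed at 0 in every shCtrl library. Neither passed as a share of the gene (adjusted p = 0.121 and 0.450). In shPCBP1 KDM5A-210 held only 174, 258 and 192 estimated counts and KDM5A-205 held 75.6, 39.8 and 0. KDM5A-201 held 4678, 4332 and 3708 there. With transcript length in the fit the log2 fold change of KDM5A was 0.67 and that of OGFOD1 0.34, against 0.15 and 0.12 without it.

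**Figure D4:**
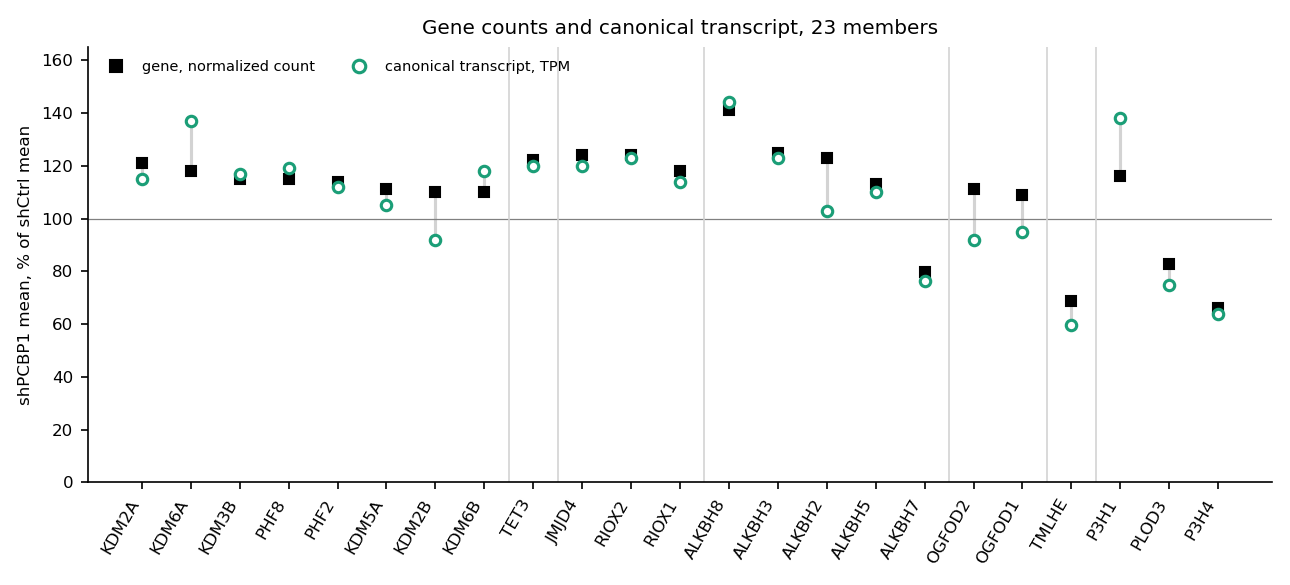
Mean of the shPCBP1 libraries as percent of the shCtrl mean for the 23 called members: squares, normalized count of the gene; open circles, TPM of the canonical transcript; a grey line joins the pair. ALKBH8 and TMLHE show similar values for both, and KDM2B, OGFOD1 and OGFOD2 lie above 100% by gene count and below it by canonical transcript.

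Transcript use was tested on 148 transcripts of 39 members, as the share of each transcript in the TPM of its gene. The test called 3 of them, beside 0.68% of the 38531 transcripts tested, and 26 had an unadjusted p under 0.05 (5292 of all transcripts). The 3 called transcripts were PLOD3-206, KDM7A-202 and JMJD8-214. Each call was lost when any 1 library was left out, with adjusted p from 0.054 to 0.115, although the size of the difference hardly moved.

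PLOD3-206 lacks the 147-base coding exon printed above and is annotated without its start. Its share of PLOD3 was 6.57%, 5.55% and 5.45% in shCtrl and 12.3%, 12.9% and 11.4% in shPCBP1 with no overlap (limma, adjusted p = 0.0246). Set against PLOD3-201, which holds the exon, the exon was included in 89.3%, 91.2% and 91.6% of the TPM in shCtrl and in 79.9%, 78.1% and 80.6% in shPCBP1. The exon-holding transcript went from 43.3, 41.7 and 41.3 TPM to 31.7, 31.6 and 31.1 TPM, or 74.8% of control. The 50 bases before the exon hold 34% C and a run of CCCC. Over 122589 internal exons of coding genes at a mean count of at least 1000, the median was 22% C (quartiles 14% and 32%), 81.7% had no more C than PLOD3, and 22.3% held CCCC on the transcribed strand. This is a description of letters and not a binding site.

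KDM7A-202 is annotated as a target of nonsense-mediated decay. Its share of KDM7A was 16.1%, 12.6% and 13.4% in shCtrl and 0.636%, 0% and 0% in shPCBP1 (adjusted p = 0.0264), while KDM7A gene counts overlapped between groups. In estimated counts this was 697, 415 and 582 in shCtrl and 13.6, 0 and 0 in shPCBP1, and an exact 0 can be a failed estimate of the software. The transcript was under 1 TPM in every library, and some of its reads may not be unique to this gene. The call was also lost with a pseudocount of 1 TPM (adjusted p = 0.128) and with estimated counts in place of TPM (0.117).

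JMJD8-214 retains the 79-base intron printed above. Its share of JMJD8 was 4.78%, 3.87% and 3.87% in shCtrl and 9.79%, 9.73% and 10.1% in shPCBP1, with libraries of each group nearly level (adjusted p = 0.0325). Over the 3 transcripts that retain the intron and the 8 that splice it, retention was 17.3%, 22.8% and 21.7% in shCtrl and 33.4%, 32.7% and 36.6% in shPCBP1. The spliced transcripts were at 20.8, 19.2 and 17.5 TPM against 19.4, 18.5 and 16.6 TPM, with overlapping groups, and the retaining ones went from 4.34, 5.65 and 4.86 TPM to 9.75, 8.98 and 9.59 TPM. The intron is C-rich, at 50.6% C with a run of CCCC, and G and C together make up 78.5% of it. The introns set beside it here were not matched for G and C. Of 7129 introns of 60 to 100 bases in coding genes with a mean of at least 1000, 98.6% had no more C, the median was 26.7% C, and 47.8% held CCCC on the transcribed strand. The exon and intron percentages were computed after the called transcripts were known and carry no test of their own.

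**Figure D5:**
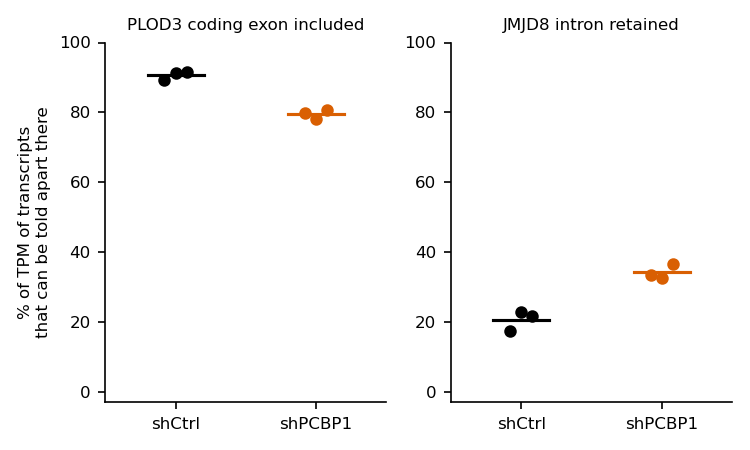
Percent of TPM from transcripts that include the PLOD3 exon (left) or retain the JMJD8 intron (right), among transcripts that can be told apart there; points are libraries and lines group means. PLOD3 inclusion went from 90.7% to 79.6% on average and JMJD8 retention from 20.6% to 34.3%, with no overlap of groups.

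Other members had share differences that did not pass. The 5 next lowest p-values among member genes belonged to KDM5A-201 (61.7% to 41.1% of the gene, adjusted p = 0.105), P3H1-201 (7.67% to 3.87%), OGFOD1-207 (12.8% to 9.71%), JMJD1C-207 (8.34% to 14.1%) and KDM6B-201 (27.3% to 16.2%). When all coding transcripts of a gene were set against all others, 0 of the 36 members tested were called by limma, beside 0.474% of the 7179 genes tested. Of these members 11 had an unadjusted p under 0.05 (1057 of all genes), and the lowest adjusted p was 0.147, for KDM2B, whose coding share was 87.6% in shCtrl and 93.5% in shPCBP1.

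Genes that act beside these enzymes were counted in the same fit, from lists chosen by function. Of the 16 further 2-oxoglutarate oxygenases 12 had an adjusted p, and 1 was higher and 2 lower. HIF1AN, the asparaginyl hydroxylase of hypoxia-inducible factor, rose (log2 fold change 0.28), and P4HA1 and P4HA2, the catalytic subunits of collagen prolyl hydroxylase, fell (-0.37 and -0.23). With transcript length in the fit the log2 fold change of HIF1AN was larger, 0.57, but with a standard error of 0.248 it was not called (adjusted p = 0.0807).

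For the supply of 2-oxoglutarate and its competing acids, 3 of 20 genes were higher and 6 lower, with a median log2 fold change of -0.053. GOT1, the cytosolic aspartate aminotransferase, had 8459, 8890 and 8040 normalized counts in shCtrl and 4573, 4530 and 4681 in shPCBP1. IDH2, the mitochondrial isocitrate dehydrogenase that makes 2-oxoglutarate, had 5092, 5048 and 5141 against 2994, 3123 and 3234. Both were far below control in every library, with log2 fold changes of -0.88 and -0.71, larger in size than that of any member with an adjusted p. D2HGDH, which clears 2-hydroxyglutarate back to 2-oxoglutarate, was also lower (-0.31, and -0.48 with transcript length in the fit). Of 10 genes of iron and ascorbate supply, 3 were higher and 2 lower, PCBP1 among the latter (-2.47), and the iron importers TFRC (0.35) and SLC39A14 (0.32) among the former, while ferritin heavy chain FTH1 was at 0.02 and did not pass.

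The enzymes that place the marks which members remove also rose more often than they fell. Of 19 histone methyltransferases 12 were higher and 1 lower (median log2 fold change 0.15), with KMT2D (0.39), ASH1L (0.37) and KMT2A (0.33) as the largest, of which KMT2D was at 0.21 and KMT2A was not called with transcript length in the fit (0.08, adjusted p = 0.497). Of the flavin-dependent demethylases, which need no iron, KDM1A was higher (0.09) and KDM1B did not pass. The KDM1A call was lost without shCtrl replicate 1 or shPCBP1 replicate 1 or 3 (adjusted p from 0.0591 to 0.0760). The edgeR test did not call it (0.156), nor did DESeq2 with TMM scaling (0.0651) or transcript length (0.165). It was also lost among protein-coding genes only (0.0948) and with the replicate number as a block (0.0752). Among 4 genes of DNA methylation DNMT1 (0.36), UHRF1 (0.29) and DNMT3B (0.19) were higher and DNMT3A lower (-0.49). Of 10 writers and readers of N6-methyladenosine 6 were higher and 0 lower in DESeq2, led by RBM15 (0.32), YTHDF1 (0.25) and WTAP (0.22). In the same test 8 of them had an unadjusted p under 0.05, beside 5067 of the 9369 genes with a mean of at least 1000. All genes of the lists for 2-oxoglutarate, iron and ascorbate supply, histone and DNA methylation, flavin-dependent demethylases and N6-methyladenosine averaged at least 1000 normalized counts, where the background is 28.7% higher and 16.2% lower of all genes at that level. Of the 16 further oxygenases 7 were at that level. No list was compared with another by a test, and these lists were not split by the transcript length classes given above.

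Reads from neighbours could enter some of these values. Exons of 17 members overlap exons of another coding gene, and 10 of these members were called: KDM2B, KDM5A, JMJD4, RIOX1, RIOX2, ALKBH7, TMLHE, PLOD3, OGFOD1 and OGFOD2, in each case with a neighbour on the opposite strand. JMJD8, which held a called transcript, also overlaps its neighbour STUB1 on the opposite strand. The strandedness of the libraries is not given in the sources used here, so reads of such pairs may not be told apart where they overlap.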

How the data were processed

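Poly-A RNA of K562 cells was measured in 6 paired-end libraries, 3 shCtrl and 3 shPCBP1, grouped by their labels. Transcript abundance was estimated by the authors with Salmon (v1.10.2), whose deposited estimated counts are raw and can be fractional. The TPM deposited beside them were computed by Salmon from effective length and library total. The annotation behind the Salmon index and the strandedness are not given in the sources used here. GENCODE release 44 (hg38) held 251612 of the 252045 transcript identifiers, matched with version or else without it. The others held 0.136% to 0.147% of counts and were left out.

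Gene totals of the estimated counts were rounded, and genes that reached 10 counts over all libraries were tested two-sided with DESeq2 1.42.0 (Wald test, median-of-ratios size factors, Benjamini-Hochberg over all genes, unshrunken fold changes, R 4.3.3). An adjusted p that DESeq2 gave as missing was kept missing. A gene was called at an adjusted p under 0.05. The fold limit of the study was an absolute log2 fold change over 1 with a mean normalized count over 10. Transcript shares, and the share of coding transcripts, were tested two-sided with limma 3.58.1 on the log2 ratio of TPM to the other TPM of the gene (pseudocount 0.1 TPM, genes of at least 1 TPM, shares of 5% to 95%). A call needed an adjusted p under 0.05 and a shift of more than 5 percentage points. Alternatives used edgeR 4.0.16 and other settings.

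The members, lists and tests were chosen with earlier results of these data known. Every called member is given by library, full statistics go to the 12 members with the lowest p, transcripts are the 8 with the lowest p at most 1 per gene, and context genes the 3 largest called changes per list. DNMT3B, FTH1 and KDM1B were named after their values were seen, as were the exon, intron and canonical transcripts. On simulated data over 27295 genes 102 of 200 genes with a 1.25-fold change were recovered by DESeq2 beside 22 false calls. The transcript-share test recovered 0 of 200 shifts of 10 points over 37576 transcripts and 62 of 200 shifts of 20 points over 37560. These shifts were set only in transcripts with neither a small nor a large share of their gene.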

Additional observations from a re-analysis of the deposited data

How the results depend on the processing

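Of the 23 called members 15 kept direction and call in all 14 alternatives other than the one that tested for changes beyond 2-fold, which called 0 members (0 higher, 0 lower). The number of changed members was 18 in edgeR and 17 with transcript length, and 18 to 23 when 1 library was left out. Members lower numbered 2 with transcript length and 7 among protein-coding genes only. Members higher were 14 to 21 in the other fits. Called member transcripts were 0 with estimated counts, 1 with shares of 1% to 99% and 0 to 1 when 1 library was left out, none of them among the 3. In the simulation a shift of 10 points was not recovered, but only transcripts of middle share were shifted there. It therefore did not measure power at the low shares of the 3 called transcripts. With estimated counts, the mean shares of PLOD3-206 and JMJD8-214 lay under the limit of 5%, so these transcripts were not tested there. KDM7A-202 was tested with estimated counts and not called (adjusted p = 0.117). The cause of the other lost calls was not tested.

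The replicate numbers did not pair the libraries: deviations of same-numbered libraries correlated at 0.094, -0.0203 and -0.105 over 14181 genes. With the replicate number as a block 20 members were changed, all among the 23, with KDM6B (adjusted p = 0.0865), OGFOD1 (0.0633) and OGFOD2 (0.126) lost, and 0 member transcripts were called.

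Some members changed sign without passing in any fit. All of these were near 0 in the main fit except KDM8, whose log2 fold change there was 0.20. With transcript length KDM4B was at -0.028, JMJD1C at -0.11, KDM8 at -0.00028, JMJD6 at -0.071, FTO at -0.062, ASPH at 0.061 and OGFOD3 at -0.012. With edgeR and TMM factors JMJD6 was at -0.010 and -0.010 and P3H3 at -0.0045 and -0.0044, and among protein-coding genes JMJD1C was at -0.00015, JMJD6 at -0.018 and P3H3 at -0.012. When 1 library was left out KDM7A ranged from -0.11 to 0.014, JMJD1C from -0.032 to 0.079, JMJD6 from -0.043 to 0.051, ASPH from -0.070 to 0.0066 and P3H3 from -0.021 to 0.054.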
